A study of Homo sapiens with 32 samples.

Results

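Interferon-stimulated effector genes are the 44 genes described here, out of 62703 gene identifiers in the count tables. They were taken by exact symbol from a list of known interferon-induced antiviral effectors, and all 44 symbols were found. The cells were HEK293T, a human embryonic kidney line that carries viral oncogenes, grown without interferon or any other agent. The series compared cells lacking IGF2BP1, IGF2BP2 or IGF2BP3, which are RNA-binding proteins acting on the stability and translation of mRNAs, with a control that received a non-targeting guide RNA. Its stated subject is whether IGF2BP proteins hold down innate immune signalling, and the 44 genes are the usual readout of that signalling. Poly(A)-selected RNA was sequenced from whole cells (total RNA), nuclei and cytoplasm in 32 libraries.

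The control and the knockouts went through transient transfection with plasmids that do not integrate, carrying guide RNAs and GFP, followed by sorting of single GFP-positive cells. Each knockout was represented by 1 clone, so the effect of a gene and of its clone cannot be told apart. In each RNA kind the control had 4 libraries, in batches 1 to 4 of the labels. The IGF2BP1 knockout had 2 libraries in batches 1 and 2, and the IGF2BP2 and IGF2BP3 knockouts had 2 each in batches 3 and 4. Cytoplasmic RNA of the IGF2BP3 knockout had 2 further libraries in batch 5, which held no control. The labels do not say that replicates were separate cultures, so every p-value measures the spread between these libraries only. In bulk RNA, fewer cells expressing a gene and less RNA per cell cannot be told apart.

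Libraries held 13689067 to 26119480 counts, so that a floor of 3 counts came to between 0.103 and 0.207 CPM (counts scaled to library size). The library deposited as total RNA of the IGF2BP1 knockout, replicate 2, and the one deposited as nuclear RNA of that knockout, replicate 1, held the same count for all 62703 identifiers. One of these labels must be wrong, so the call counts of the IGF2BP1 knockout in total and nuclear RNA, and the values of its called genes, are also given without that library. The targeted transcripts fell in total RNA from a mean of 472 to 26.6 CPM for IGF2BP1, from 94.5 to 32.4 for IGF2BP2 and from 89.2 to 40.4 for IGF2BP3, each in its own knockout. All 8 markers listed for HEK293T cells (neural, epithelial and embryonic genes) were detected in every group, with sums of 1152 to 1171 CPM in control total RNA and of 734 to 736 in the IGF2BP3 knockout, the lowest of the 4 groups. The 8 leukocyte markers summed to between 2.69 and 4.27 CPM in control total RNA and to between 7.14 and 7.68 in the IGF2BP3 knockout, where CD74 and CD14 were among those called higher (CD74 in the IGF2BP2 knockout too). PTPRC, which defines leukocytes, was at 0.111 CPM or less in every total RNA library, and CD3E at 0.0555 or less. The 4 fibroblast markers summed to between 35.8 and 37.8 CPM in control total RNA and to between 66.9 and 67.5 in the IGF2BP3 knockout, and the part of these 3 lists in the results below was not tested.

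Type I and type III interferons bind receptors on the cell surface, and JAK kinases then activate STAT transcription factors. These join IRF9 in a complex that binds interferon-stimulated response elements in promoters. The genes so induced encode proteins that bind or cut foreign RNA, block entry and budding at membranes, tag proteins with the ubiquitin-like ISG15, or end the response. Many keep a low level without interferon, set by the same factors and by the cell type.

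The response element has the core TTTCNNTTTC, or GAAANNGAAA on the other strand. Both strands were searched, and matches could overlap, in windows from 250 bases before to 50 bases after each start in the RefSeq promoter table (GRCh38.p14). The core was present in 1255 of 35116 windows (3.57%). By gene symbol, at least 1 window held it for 1195 of 27305 symbols (4.38%) and for 24 of the 37 effector genes that the table holds (64.9%). The stretches below come from genes that the results turn on. They show how closely such cores sit before the start in OAS3, EPSTI1, SAMD9, IFI6, IFIT1 and ISG15, while the stretch of SP110, which had the largest fitted fold change over a control near the floor, holds none. Each runs 5′ to 3′ on the gene's strand from 200 bases before the start to the first annotated exon or to 31 bases before the start, and capitals mark the core.
OAS3: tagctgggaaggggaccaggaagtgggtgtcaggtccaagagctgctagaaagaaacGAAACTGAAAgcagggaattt
EPSTI1: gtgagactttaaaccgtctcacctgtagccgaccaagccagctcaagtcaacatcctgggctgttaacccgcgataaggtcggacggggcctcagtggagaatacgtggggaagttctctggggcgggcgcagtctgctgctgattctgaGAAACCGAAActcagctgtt
SAMD9: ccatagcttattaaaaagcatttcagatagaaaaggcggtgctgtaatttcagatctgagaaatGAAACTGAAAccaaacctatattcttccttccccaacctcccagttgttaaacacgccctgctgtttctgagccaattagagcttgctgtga
IFI6: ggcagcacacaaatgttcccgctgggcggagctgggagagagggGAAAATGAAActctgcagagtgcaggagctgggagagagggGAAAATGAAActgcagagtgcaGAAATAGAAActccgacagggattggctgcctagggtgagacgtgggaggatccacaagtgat
IFIT1: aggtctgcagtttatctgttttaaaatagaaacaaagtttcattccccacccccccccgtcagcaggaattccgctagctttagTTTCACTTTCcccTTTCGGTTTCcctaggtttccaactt
ISG15: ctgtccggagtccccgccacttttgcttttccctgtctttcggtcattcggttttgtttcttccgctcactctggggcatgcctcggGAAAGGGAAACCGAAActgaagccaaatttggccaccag
SP110: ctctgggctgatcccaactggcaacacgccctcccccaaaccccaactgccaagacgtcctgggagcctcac
The OAS3 stretch is chr12:112938274-112938351, plus strand, and its core begins 143 bases before the start. EPSTI1 has its core 50 bases before the start (chr13:42992272-42992441, minus strand), and SAMD9 has its core at 136 bases (chr7:93118024-93118179, minus strand). The IFI6 stretch (chr1:27672223-27672392, minus strand) has 3 cores, at 156, 115 and 93 bases. IFIT1 (chr10:89392423-89392545, plus strand) has 2, at 116 and 103 bases, and ISG15 (chr1:1013297-1013422, plus strand) has 2 overlapping ones, at 113 and 107 bases. The SP110 stretch is chr2:230220113-230220184, minus strand, and the 300-base window around it holds no match either. A match is a description of the letters, and no match says only that they are not in that window. Among the 29 genes that were both in the table and tested, 12 of 20 with a core and 4 of 9 without one had a higher call in whole-cell RNA of the IGF2BP3 knockout. In nuclear RNA these counts were 11 of 20 and 6 of 9, and in cytoplasmic RNA 15 of 20 and 5 of 9. Of all genes tested, 23.5%, 25.1% and 31.5% had a higher call in total, nuclear and cytoplasmic RNA of that knockout. The genes with a core thus took the larger share in total and cytoplasmic RNA and the smaller one in nuclear RNA, and no test was made of the difference.

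In unstimulated control cells, most of the effector genes were expressed, most of them weakly. A control mean of at least 1 CPM was reached by 25 genes in total, 26 in nuclear and 24 in cytoplasmic RNA, with 24 above it in all 3. Per kilobase of annotated exons in total RNA, the highest control level was that of ADAR, an editing enzyme of double-stranded RNA that is also made from a constitutive promoter, at 46.5 CPM per kb ± 2.05 (SD, n = 4). LGALS3BP, a secreted glycoprotein that binds galectins, followed at 35.1 ± 5.76. TRIM25, IFITM2, SAMHD1, IFITM1, USP18 and ISG15 came next, at 8.85, 8.84, 7.26, 7.14, 6.81 and 6.20 CPM per kb. Their order is that of the means only, since neighbouring values lie close together.

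A group of the effector genes was barely detected. In every library of the 3 RNA kinds 13 genes stayed under 1 CPM, namely CMPK2, GBP1, IFI44, IFIT2, MX1, MX2, OAS1, OAS2, RSAD2, RTP4, SAMD9L, SP100 and XAF1. Of these, 10 had too few counts to be tested in any RNA kind. Over all 32 libraries together CMPK2 had 141 counts, GBP1 77, SAMD9L 39, IFI44 34, MX2 18, OAS2 16, OAS1 14, RSAD2 11 and XAF1 6, and RTP4 had none. These counts were unevenly split over the 12 control, 6 IGF2BP1, 6 IGF2BP2 and 8 IGF2BP3 libraries. MX2 had 1, 2, 1 and 14 counts in these groups in turn, SAMD9L 1, 7, 16 and 15, and GBP1 7, 6, 39 and 25. OAS1 had 0, 2, 2 and 10 and OAS2 1, 0, 3 and 12. CMPK2 had 41, 20, 21 and 59, and IFI44 9, 2, 7 and 16. The knockouts thus held most of the counts of MX2, SAMD9L, GBP1, OAS1 and OAS2, but they also held most of the sequencing depth. In total RNA, control libraries had counts for 25185 to 26056 identifiers. IGF2BP1 libraries had 25665 and 26176, IGF2BP2 libraries 27120 and 28532, and IGF2BP3 libraries 29225 and 28567. More detection near the floor without IGF2BP2 or IGF2BP3 is thus not particular to these genes, and no test was made of these splits. Knockout moved few genes across 1 CPM. In total RNA EPSTI1 and IFIT3 were under it in the control and over it in all 3 knockouts, BST2 and ISG20 in the IGF2BP2 and IGF2BP3 knockouts, and SP110 in the IGF2BP3 knockout. IFI44L went the other way in the IGF2BP1 and IGF2BP2 knockouts. The number of genes at or above 1 CPM in total RNA was 26, 28 and 30 in the IGF2BP1, IGF2BP2 and IGF2BP3 knockouts.

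**Figure D1:**
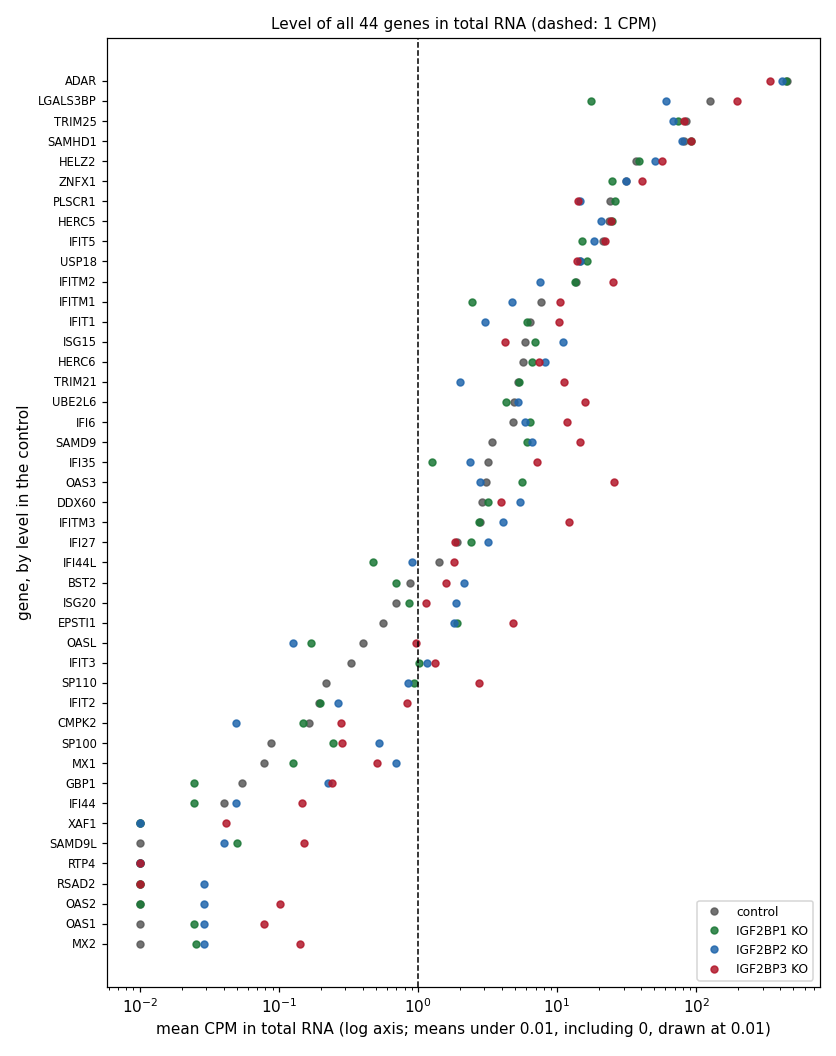
Mean CPM in total RNA of all 44 genes (log axis, means under 0.01 drawn at 0.01), with 1 point for each genotype (control n = 4, knockouts n = 2) and genes ordered by their control level. ADAR stands at the top at 450.1 CPM in the control, and the 13 genes that stay under 1 CPM in every library are all left of the dashed line.

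The knockouts differed in which way the effector genes went. Changes were tested with edgeR's quasi-likelihood test with batch as a term, and a gene was called at an adjusted p (Benjamini-Hochberg over all genes tested) under 0.05. In each RNA kind 34 of the 44 genes passed the filter on low counts. A gene that passed only through the libraries where it is high had to differ, so the counts describe these 34 genes and not the whole list. In total RNA of the IGF2BP3 knockout 21 genes were called, 19 higher and 2 lower. Of all genes tested 46.9% were called there, 23.5% higher and 23.4% lower. The number called was thus above that share, and the higher direction held most of it. The median log2 fold change of the 34 was 0.88 against 0.019 over all genes tested. In nuclear RNA 20 were called higher and 2 lower, against 25.1% and 25.3% of all genes (50.4% in either direction). In cytoplasmic RNA 24 were called higher and 5 lower, against 31.5% and 33.2% (64.7% in either direction).

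The IGF2BP2 knockout was mixed. In total RNA 13 genes were called higher and 8 lower, with a background of 23.3% and 23.7% of all genes (47.0% in either direction). In nuclear RNA 11 were higher and 6 lower, against 24.8% and 24.9% (49.7%), and in cytoplasmic RNA 11 and 13, against 30.9% and 33.2% (64.2%). The nuclear and cytoplasmic counts in either direction, 17 and 24 of 34, were close to that background, so they are no result about these genes. In the cytoplasmic comparison the split depends on the scaling, with 12 higher and 9 lower under upper quartile scaling and 16 and 8 under plain library totals. The median log2 fold changes were 0.062 against 0.02 over all genes in total RNA, 0.39 against 0.0067 in nuclear RNA and 0.022 against 0.013 in cytoplasmic RNA.

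The IGF2BP1 knockout had the fewest calls. In total RNA 6 genes were higher and 6 lower, against 10.7% and 13.5% of all genes (24.2% in either direction). Nuclear RNA had 5 higher and 8 lower, against 12.7% and 13.0% (25.7%), and cytoplasmic RNA 9 and 11, against 22.5% and 21.9% (44.4%). Without the library deposited under both labels, 10 genes were called in total RNA (5 higher, 5 lower, 9 of them shared with the 12) and 9 in nuclear RNA (4 higher, 5 lower). In total RNA the calls of IFI44L, PLSCR1 (adjusted p = 0.105) and ZNFX1 (0.405) were then lost, and in nuclear RNA those of IFI44L, IFI6 (0.0519), TRIM21 (0.0807) and TRIM25 (0.263). The log2 fold changes in total RNA became -2.96 for LGALS3BP, -1.86 for IFITM1, -1.08 for IFI35, -0.65 for IFIT5, 0.89 for OAS3, 1.79 for SP110 and 2.13 for IFIT3, all still called, as was SAMD9. EPSTI1 went from 1.77 to 3.01. In nuclear RNA they became -2.73 for LGALS3BP, -1.96 for ISG20, -1.50 for IFI35, -1.42 for IFITM1, -0.81 for IFIT5, 1.07 for SAMD9, 1.08 for OAS3, 1.77 for EPSTI1 and 1.94 for SP110, again all called. With that library left out, 1 IGF2BP1 library remained in total RNA and 1 in nuclear RNA. The fold changes and calls without it thus rest on 1 knockout library each and are given as a description. With all libraries the median log2 fold changes lay near those of all genes, at 0.13 against 0.0045 in total RNA and -0.032 against 0.011 in cytoplasmic RNA. In all 9 of these comparisons, each called gene moved the same way in both pairs of knockout and control libraries from 1 batch.

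Agreement between the RNA kinds picks out a smaller set. In the IGF2BP3 knockout 17 genes were called higher in total, nuclear and cytoplasmic RNA alike (BST2, EPSTI1, HELZ2, IFI35, IFI6, IFIT1, IFIT2, IFIT3, IFITM1, IFITM2, IFITM3, LGALS3BP, OAS3, SAMD9, SP110, TRIM21 and UBE2L6), and ADAR and PLSCR1 were called lower in all 3. Over the 17587 genes with a test in each RNA kind, the share higher in all 3 was 17.1% and the share lower in all 3 was 18.0%. Of these effector genes, 10 higher calls (EPSTI1, IFI6, IFITM2, IFITM3, LGALS3BP, OAS3, SAMD9, SP110, TRIM21 and UBE2L6) and PLSCR1 also held under every alternative setting that was run. In the IGF2BP2 knockout BST2, DDX60, EPSTI1, HELZ2, ISG15 and SP110 were higher and IFI35, IFIT1, LGALS3BP, PLSCR1 and TRIM21 lower in the 3 RNA kinds, against 15.8% and 16.2% of all genes. Of these, BST2 and ISG15 (higher) and IFIT1, LGALS3BP, PLSCR1 and TRIM21 (lower) held under every alternative. In the IGF2BP1 knockout EPSTI1, OAS3, SAMD9 and SP110 were higher and IFI35, IFI44L, IFIT5, IFITM1 and LGALS3BP lower, against 4.22% and 6.60%. There, total and nuclear RNA share the library deposited under both labels. Agreement between these RNA kinds, for these and for all genes, is thus partly built in. Without that library IFI44L went from -1.52 to -0.58 in total and from -1.21 to -1.09 in nuclear RNA. Only IFITM1 and LGALS3BP, both lower, held under every alternative in the 3 RNA kinds. The IGF2BP2 numbers, 6 and 5 of 34, were close to the share over all genes, so they are no result about these genes. EPSTI1 was called higher in all 9 comparisons. So was SP110, but it passed the filter on low counts only through the knockouts where it is high. Its calls here, also those under the alternatives, thus support nothing. The same holds for IFIT2 in the IGF2BP3 list and for the total RNA call of IFIT3. The same control libraries serve the 3 knockouts, so the values stand side by side and are not independent.

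**Figure D2:**
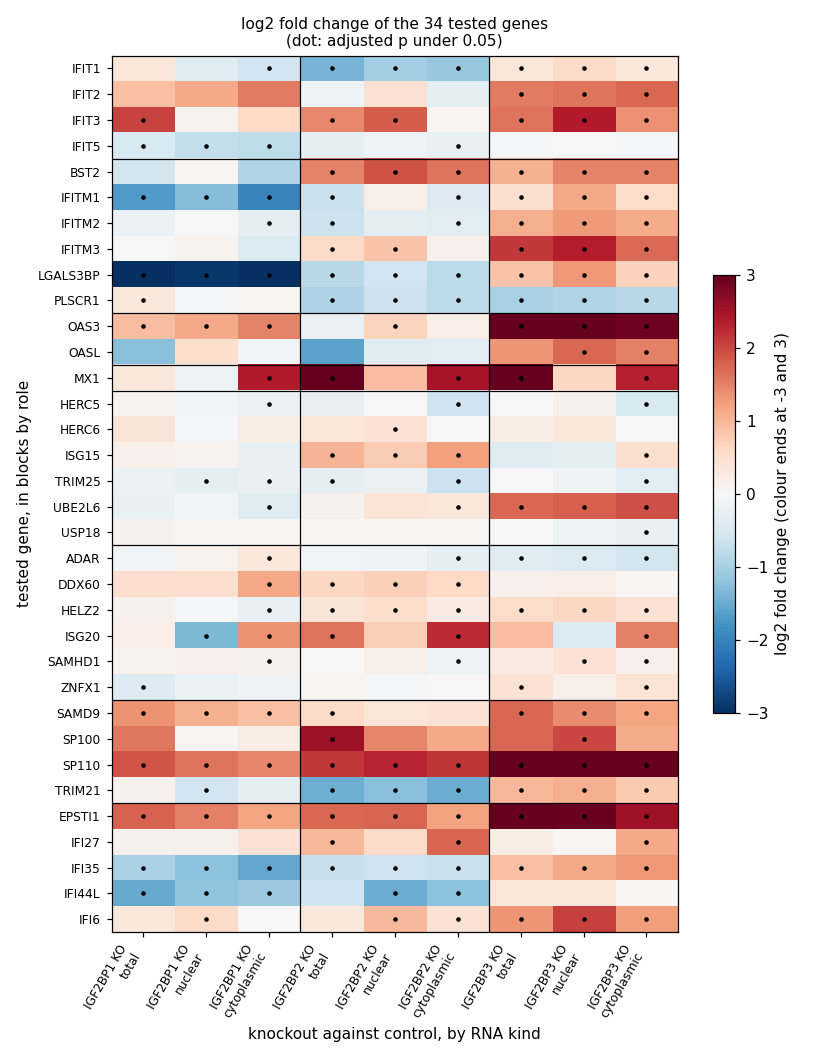
Log2 fold change against the control of the 34 tested genes (rows, in blocks by role) in the 3 knockouts and 3 RNA kinds (columns), with a dot where the adjusted p is under 0.05 and colour ending at -3 and 3. The IGF2BP3 columns are mostly red, with 19, 20 and 24 genes called higher, while the IGF2BP1 and IGF2BP2 columns hold red and blue side by side.

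The 4 IFIT genes lie together on chromosome 10, between 89283694 and 89421001 (GRCh38, GENCODE 29). Their proteins bind foreign RNA, IFIT1 at caps that lack the methyl marks of host mRNA, with IFIT2 and IFIT3 as its partners, and IFIT5 at uncapped triphosphate ends. In the IGF2BP3 knockout IFIT1, IFIT2 and IFIT3 were called higher in every RNA kind, and IFIT5 was not called. IFIT1 in total RNA was 4.43, 4.99, 7.36 and 8.57 CPM in control cells, 6.36 and 5.7 without IGF2BP1, 3.01 and 3.01 without IGF2BP2 and 10.1 and 10.4 without IGF2BP3. The control varied with batch here, and in each batch the IGF2BP2 knockout was below its control and the IGF2BP3 knockout above it. IFIT1 in nuclear RNA was 8.5, 9.75, 10.0 and 10.1 CPM in control cells, 5.71 and 8.42 without IGF2BP1, 5.38 and 4.58 without IGF2BP2 and 14.5 and 15.2 without IGF2BP3. Cytoplasmic IFIT1 was 7.77, 7.43, 6.75 and 6.9 CPM in control cells, 5.37 and 4.89 without IGF2BP1, 3.12 and 3.09 without IGF2BP2 and 7.98, 8.94, 6.05 and 7.22 without IGF2BP3. The IGF2BP2 values lay below every control library in all 3 RNA kinds, while the IGF2BP3 values overlapped the control in the cytoplasm. In total RNA the log2 fold change was -1.40 (SE 0.168, adjusted p = 2.38e-05) in the IGF2BP2 knockout and 0.37 (SE 0.14, adjusted p = 0.0426) in the IGF2BP3 knockout. The second of these was often lost, since its adjusted p ranged from 0.00387 to 0.339 over the alternatives, above 0.05 in several of them, such as without either IGF2BP3 library, without either control library of batches 3 and 4, and with DESeq2. In cytoplasmic RNA the IGF2BP3 call (0.31 (adjusted p = 0.031)) was lost with DESeq2 (0.211), without the replicate block (0.067 (adjusted p = 0.677)) and without control replicate 3 or 4 or IGF2BP3 replicate 2 (0.0634 to 0.257). In nuclear RNA it was lost without IGF2BP3 replicate 2 (0.0514).

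IFIT3 rose from 0.331 CPM ± 0.0986 (SD, n = 4) in control total RNA to 1.02 CPM ± 0.272 (SD, n = 2), 1.16 CPM ± 0.409 (SD, n = 2) and 1.32 CPM ± 0.456 (SD, n = 2) in the IGF2BP1, IGF2BP2 and IGF2BP3 knockouts. Its log2 fold changes in total RNA were 2.02 (adjusted p = 0.00579) and 1.63 (adjusted p = 0.00359) in the first and the last of these, and it was called in the IGF2BP2 knockout too. Control total RNA held 4 to 8 counts of IFIT3 per library. It passed the filter there only through the knockouts, so these total RNA calls support nothing. The nuclear values were 0.10, 1.81 and 2.37 and the cytoplasmic ones 0.60, 0.067 and 1.38 in the 3 knockouts in turn, and only the IGF2BP2 and IGF2BP3 nuclear and the IGF2BP3 cytoplasmic values were called. IFIT2 stayed under 1 CPM, with 1 to 7 counts per control library. It was called higher in the IGF2BP3 knockout in the 3 RNA kinds, at 1.56, 1.60 and 1.72. IFIT2 passed the filter only with the libraries of that knockout, so a difference there had to appear, and its calls support nothing. IFIT5 fell in the IGF2BP1 knockout, by log2 fold changes of -0.45, -0.74 and -0.77, and its total RNA call was lost in several alternatives, with an adjusted p of up to 0.149. IFIT1, IFIT2 and IFIT3 overlap LIPA on the opposite strand, and the strand setting of the counting is not given in the sources used here.

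The membrane block holds proteins that act on viral entry and release. The IFITM proteins sit in cell and endosome membranes and impede fusion of virus with them, BST2 tethers budding virions, PLSCR1 is a phospholipid scramblase, and LGALS3BP is secreted. Of the 6 tested genes, 5 were called higher and 1 lower in each RNA kind of the IGF2BP3 knockout. Of all genes, 23.5%, 25.1% and 31.5% were called higher there and 23.4%, 25.3% and 33.2% lower in total, nuclear and cytoplasmic RNA. In the IGF2BP2 knockout 2 were higher and 4 lower in total RNA, against 23.3% and 23.7% of all genes. In the IGF2BP1 knockout 1 was higher and 2 lower, against 10.7% and 13.5%. RSAD2, which makes a chain-terminating nucleotide, and its neighbour CMPK2, a nucleotide kinase, were not tested.

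LGALS3BP (chromosome 17, 78971238 to 78980109, minus strand) had the largest fall of any tested effector gene. In total RNA LGALS3BP was 142, 146, 107 and 109 CPM in control cells, 18.2 and 17.1 without IGF2BP1, 59.5 and 61.8 without IGF2BP2 and 199.5 and 191 without IGF2BP3. Nuclear LGALS3BP was 148, 138, 120.0 and 121 CPM in control cells, 17.2 and 20.8 without IGF2BP1, 77.6 and 85.5 without IGF2BP2 and 294 and 301 without IGF2BP3. In cytoplasmic RNA LGALS3BP was 101, 109, 107 and 108 CPM in control cells, 11.1 and 11.8 without IGF2BP1, 63.2 and 58.8 without IGF2BP2 and 170.5, 174, 106 and 117 without IGF2BP3. In total and nuclear RNA the 4 groups did not overlap, in the order IGF2BP1 knockout, IGF2BP2 knockout, control, IGF2BP3 knockout. In the cytoplasm the batch 5 libraries of the IGF2BP3 knockout, the last 2 given, lay close to the control. In total RNA LGALS3BP was 8.14-fold lower in the IGF2BP1 knockout, a log2 fold change of -3.03 (SE 0.10, adjusted p = 1.76e-09), with values of -2.91 in nuclear and -3.20 in cytoplasmic RNA. It also fell in the IGF2BP2 knockout, by 1.78-fold, and rose in the IGF2BP3 knockout, by 1.81-fold, with log2 fold changes of -0.83 (adjusted p = 1.2e-05) and 0.85 (adjusted p = 7.82e-06).

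IFITM1, IFITM2 and IFITM3 lie next to each other on chromosome 11 (307631 to 327537). The annotation of IFITM1 lies within that of IFITM2, and the 3 are close paralogs, so reads may be shared among them. In total RNA IFITM1 was 7.94, 7.82, 7.16 and 7.9 CPM in control cells, 2.17 and 2.73 without IGF2BP1, 4.8 and 4.66 without IGF2BP2 and 10.2 and 10.7 without IGF2BP3. Nuclear IFITM1 was 6.27, 6.88, 6.41 and 7.32 CPM in control cells, 2.73 and 2.56 without IGF2BP1, 7.73 and 7.8 without IGF2BP2 and 14.8 and 15.2 without IGF2BP3. In cytoplasmic RNA IFITM1 was 6.73, 10.1, 10.1 and 9.67 CPM in control cells, 1.73 and 2.5 without IGF2BP1, 7.91 and 7.23 without IGF2BP2 and 14.5, 14.6, 6.52 and 6.25 without IGF2BP3. The IGF2BP1 libraries lay below all others in every RNA kind. In total and nuclear RNA the IGF2BP3 libraries lay above all others, and in the cytoplasm the batch 5 pair fell below the control range. The log2 fold changes in total, nuclear and cytoplasmic RNA were -1.69, -1.31 and -1.99 in the IGF2BP1 knockout, all called. The IGF2BP3 values were 0.48, 1.13 and 0.56, and the total RNA call there was lost without any one of the IGF2BP3 or same-batch control libraries (adjusted p of 0.0641 to 0.149) and with DESeq2 (0.106), within 0.00113 to 0.149 over the alternatives.

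In total RNA IFITM3 was 2.69, 2.77, 2.44 and 3.19 CPM in control cells, 2.68 and 2.77 without IGF2BP1, 3.88 and 4.3 without IGF2BP2 and 13.3 and 10.9 without IGF2BP3. Nuclear IFITM3 was 2.52, 3.4, 3.01 and 3.44 CPM in control cells, 2.78 and 3.56 without IGF2BP1, 5.93 and 5.66 without IGF2BP2 and 16.2 and 16.4 without IGF2BP3. In cytoplasmic RNA IFITM3 was 5.01, 3.86, 7.14 and 4.89 CPM in control cells, 3.2 and 3.46 without IGF2BP1, 6.88 and 6.34 without IGF2BP2 and 18.8, 20.1, 18.1 and 16.4 without IGF2BP3. The IGF2BP3 knockout was above every other library in each RNA kind, the batch 5 pair included, and the IGF2BP1 libraries were within or close to the control range. IFITM3 rose 4.35-fold in total RNA of the IGF2BP3 knockout, with log2 fold changes of 2.12 (SE 0.183, adjusted p = 1.66e-06) in total, 2.35 (adjusted p = 3.57e-15) in nuclear and 1.71 (adjusted p = 3.44e-14) in cytoplasmic RNA. IFITM2 rose as well, from 13.6 CPM ± 2.18 (SD, n = 4) in control total RNA to 25.2 CPM ± 0.917 (SD, n = 2), with log2 fold changes of 1.09, 1.27 and 1.11 in the 3 RNA kinds. In the IGF2BP2 knockout IFITM2 was at 7.56 CPM ± 0.955 (SD, n = 2), called lower in total and cytoplasmic RNA.

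BST2 (chromosome 19, 17402939 to 17405648, minus strand) straddled 1 CPM. In total RNA BST2 was 0.913, 1.11, 0.895 and 0.612 CPM in control cells, 0.606 and 0.779 without IGF2BP1, 2.37 and 1.89 without IGF2BP2 and 1.78 and 1.42 without IGF2BP3. Nuclear BST2 was 0.503, 0.647, 0.971 and 0.955 CPM in control cells, 0.781 and 0.451 without IGF2BP1, 3.79 and 3.47 without IGF2BP2 and 2.84 and 2.59 without IGF2BP3. In cytoplasmic RNA BST2 was 0.574, 0.595, 0.844 and 0.825 CPM in control cells, 0.246 and 0.372 without IGF2BP1, 2.77 and 2.41 without IGF2BP2 and 2.78, 1.96, 0.821 and 0.975 without IGF2BP3. It was highest in the IGF2BP2 knockout in total and nuclear RNA, and in both knockouts of batches 3 and 4 it lay above every control library, apart from the batch 5 pair, whose values reached into the control range. The log2 fold changes of BST2 in total, nuclear and cytoplasmic RNA were 1.49, 1.91 and 1.62 without IGF2BP2 and 1.07, 1.49 and 1.48 without IGF2BP3, all called. The total RNA call in the IGF2BP3 knockout (0.0107) ranged from 0.00185 to 0.105 over the alternatives and was lost without any one of its libraries or of the same-batch controls. PLSCR1 fell from 24.1 CPM ± 4.12 (SD, n = 4) in control total RNA to 14.6 CPM ± 0.101 (SD, n = 2) and 14.2 CPM ± 1.55 (SD, n = 2) in the IGF2BP2 and IGF2BP3 knockouts. Its log2 fold changes were -0.92, -0.64 and -0.78 and -0.96, -0.91 and -0.82 in the 3 RNA kinds, all called, and all 6 calls held under every alternative.

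The OAS enzymes make oligoadenylates, messengers of antiviral defence, when they bind double-stranded RNA, whereas OASL has no such activity and binds the sensor RIG-I. OAS1, OAS2 and OAS3 are neighbours on chromosome 12 (112906777 to 113011723), yet only OAS3 had counts enough to be tested. In total RNA OAS3 was 3.15, 2.77, 3.68 and 2.69 CPM in control cells, 5.81 and 5.4 without IGF2BP1, 2.78 and 2.81 without IGF2BP2 and 24.1 and 27.2 without IGF2BP3. Nuclear OAS3 was 2.35, 3.24, 2.38 and 1.27 CPM in control cells, 5.42 and 6.82 without IGF2BP1, 3.38 and 2.7 without IGF2BP2 and 19.3 and 21.9 without IGF2BP3. In cytoplasmic RNA OAS3 was 2.56, 1.88, 3.12 and 2.06 CPM in control cells, 6.11 and 6.33 without IGF2BP1, 3.04 and 2.83 without IGF2BP2 and 18.2, 20.4, 15.9 and 13 without IGF2BP3. Every library of the IGF2BP3 knockout was far above all other libraries, and those of the IGF2BP1 knockout lay between it and the rest. OAS3 rose 7.93-fold in total RNA of the IGF2BP3 knockout, with log2 fold changes of 2.99 (SE 0.16, adjusted p = 4.57e-08), 3.46 (adjusted p = 3.94e-19) and 2.91 (adjusted p = 8.69e-18) in total, nuclear and cytoplasmic RNA. In the IGF2BP1 knockout these were 0.92 (adjusted p = 0.00361), 1.13 (adjusted p = 3.28e-05) and 1.49 (adjusted p = 1.08e-07). With limma on log2(FPKM + 1) the total and nuclear RNA calls there were lost (adjusted p = 0.0756 and 0.0674). The IGF2BP2 knockout was called in nuclear RNA only, at 0.68 (adjusted p = 0.0263), with -0.21 in total RNA, which was not called. The nuclear value fell to 0.33 (adjusted p = 0.299) without the replicate block and to 0.31 (adjusted p = 0.478) without control replicate 4. The call was also lost without IGF2BP2 replicate 1 (0.175), with DESeq2 (0.0722) and with limma on both log2 scales of FPKM (0.0927 and 0.254).

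OASL stood at 0.40 CPM ± 0.116 (SD, n = 4) in control total RNA. It was called higher in nuclear and cytoplasmic RNA of the IGF2BP3 knockout, at log2 fold changes of 1.72 (adjusted p = 0.0053) and 1.51 (adjusted p = 0.00733), and not in total RNA, at 1.33 (adjusted p = 0.0524). The total RNA value was called in several alternatives, with an adjusted p of 0.0106 to 0.476 over them. In each RNA kind OASL passed the filter only with the IGF2BP3 libraries, so its nuclear and cytoplasmic calls support nothing. OAS1 and OAS2 had 10 of their 14 and 12 of their 16 counts in the IGF2BP3 knockout, against 0 and 1 in the control, too few to be tested.

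Of the large GTPases, which assemble on viral ribonucleoproteins or on pathogen membranes, MX2 and GBP1 were not tested and MX1 was under 1 CPM throughout. MX1 was at 0.0783 CPM ± 0.0279 (SD, n = 4) in control total RNA and at 0.697 CPM ± 0.0772 (SD, n = 2) and 0.507 CPM ± 0.070 (SD, n = 2) in the IGF2BP2 and IGF2BP3 knockouts. Control libraries held 1 or 2 counts of MX1, against 13 and 16 in the IGF2BP2 and 15 and 10 in the IGF2BP3 knockout. MX1 thus passed the filter only through the knockouts where it is high, so a difference there had to appear, and its calls support nothing. The fitted log2 fold changes, which depend on how the model treats low counts, were 3.54 and 3.09. In nuclear RNA they were 0.93 (adjusted p = 0.238) and 0.63 (adjusted p = 0.445), not called. Cytoplasmic control libraries also held 1 or 2 counts. Without control replicate 3 the total RNA calls were lost, with adjusted p of 0.0674 in the IGF2BP2 and 0.127 in the IGF2BP3 knockout, within 0.000139 to 0.0674 and 0.00104 to 0.127 over the alternatives.

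ISG15 is attached to proteins by the conjugating enzyme UBE2L6 and the ligase HERC5, and USP18 removes it and also dampens the interferon receptor. HERC6 is a relative of HERC5, and TRIM25 is a ubiquitin ligase that acts with RIG-I. These 6 genes were all tested, and they did not move as a set. UBE2L6 (chromosome 11, 57551656 to 57568284, minus strand) had the largest change of them. In total RNA UBE2L6 was 4.61, 5.55, 5.07 and 4.29 CPM in control cells, 4.44 and 4.19 without IGF2BP1, 5.03 and 5.42 without IGF2BP2 and 13.4 and 18.1 without IGF2BP3. Nuclear UBE2L6 was 4.92, 3.6, 4.27 and 3.82 CPM in control cells, 4.2 and 3.81 without IGF2BP1, 5.59 and 5.23 without IGF2BP2 and 14.9 and 13.4 without IGF2BP3. In cytoplasmic RNA UBE2L6 was 6.36, 6.89, 6.81 and 6.37 CPM in control cells, 5.57 and 4.73 without IGF2BP1, 8.55 and 7.99 without IGF2BP2 and 23.9, 26.2, 12.1 and 12.2 without IGF2BP3. The IGF2BP3 libraries were above all others in every RNA kind, and in the cytoplasm the batch 5 pair stood at about the midpoint between the control and the other pair on the log scale. UBE2L6 rose 3.3-fold in total RNA of the IGF2BP3 knockout, with log2 fold changes of 1.72 (SE 0.169, adjusted p = 4.64e-06), 1.80 (adjusted p = 4.7e-12) and 1.93 (adjusted p = 1.62e-17) in total, nuclear and cytoplasmic RNA.

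ISG15 itself rose without IGF2BP2. In total RNA the control stood at 5.83 CPM ± 0.917 (SD, n = 4) and the knockout at 10.9 CPM ± 0.408 (SD, n = 2). Its log2 fold changes there were 1.01 (adjusted p = 0.000158), 0.75 (adjusted p = 8.41e-05) and 1.24 (adjusted p = 6.66e-07) in total, nuclear and cytoplasmic RNA. In the IGF2BP3 knockout ISG15 was at 4.25 CPM ± 0.455 (SD, n = 2) in total RNA, a log2 fold change of -0.35 (adjusted p = 0.105) that was not called, and was called higher in the cytoplasm at 0.47. HERC5 and TRIM25 were called lower in cytoplasmic RNA of all 3 knockouts, by log2 fold changes of -0.19, -0.59 and -0.46 for HERC5 and -0.22, -0.64 and -0.32 for TRIM25. The IGF2BP1 calls of both, and the IGF2BP3 call of TRIM25, did not hold under every alternative. In batch 5 TRIM25 was at 62.5 and 65.1 CPM, within the control range of 58.4 to 79.7. USP18 moved little, and its only call was -0.21 (adjusted p = 0.0455) in cytoplasmic RNA of the IGF2BP3 knockout, a direction that turned under plain library totals. HERC6 was called once, at 0.44 (adjusted p = 0.0328) in nuclear RNA of the IGF2BP2 knockout. TRIM25 overlaps DGKE and other genes on both strands, and ISG15 overlaps 2 genes on the opposite strand.

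Among the RNA and nucleotide enzymes, log2 fold changes beyond 1 in size were those of ISG20, an exonuclease, and DDX60. In total RNA 2 of the 6 were called higher (HELZ2 and ZNFX1) and ADAR lower in the IGF2BP3 knockout, and 3 higher (DDX60, HELZ2 and ISG20) in the IGF2BP2 knockout. Of all genes 46.9% and 47.0% were called in either direction in these comparisons, so the numbers called are no result about these genes. HELZ2, a helicase-like coactivator, went from 37 CPM ± 2.05 (SD, n = 4) in control total RNA to 50.5 CPM ± 3.38 (SD, n = 2) and 56.5 CPM ± 0.12 (SD, n = 2), with log2 fold changes of 0.39, 0.53 and 0.24 and 0.55, 0.63 and 0.43 in the 3 RNA kinds. ADAR was at 450.1 CPM ± 19.9 (SD, n = 4) in the control and 338 CPM ± 15.2 (SD, n = 2) in the IGF2BP3 knockout, with log2 fold changes of -0.36, -0.41 and -0.55 in the 3 RNA kinds. Its total RNA call was lost under upper quartile scaling (adjusted p = 0.0606), under plain library totals (0.234), and without control replicate 3 (0.124) or either IGF2BP3 library, with a range of 1.53e-06 to 0.234 over the alternatives. In cytoplasmic RNA of the IGF2BP1 knockout ADAR was called the other way, higher, at 467 CPM ± 3.055 (SD, n = 2) against 348 CPM ± 29.1 (SD, n = 4) in the control. DDX60, a helicase linked to RNA sensing, rose in the IGF2BP2 knockout by 0.61, 0.72 and 0.60 and in cytoplasmic RNA of the IGF2BP1 knockout by 1.17. SAMHD1, which degrades deoxynucleotides, and ZNFX1, a helicase of antiviral sensing, had no log2 fold change beyond 0.43 in size. ISG20 is described with the nuclear to cytoplasmic ratios, since the sign of its fitted change differed between compartments in the IGF2BP1 knockout.

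The group of nuclear body and other restriction factors held the gene with the largest fitted fold change, over a control near the floor. SP110 is a nuclear body protein (chromosome 2, 230167293 to 230225729, minus strand) and averaged under 1 CPM over the total RNA libraries, so that its libraries were chosen for printing after its values were seen. In total RNA SP110 was 0.274, 0.222, 0.199 and 0.184 CPM in control cells, 0.959 and 0.925 without IGF2BP1, 0.694 and 1.0 without IGF2BP2 and 2.6 and 2.93 without IGF2BP3. Nuclear SP110 was 0.392, 0.324, 0.146 and 0.318 CPM in control cells, 0.927 and 1.25 without IGF2BP1, 0.828 and 1.37 without IGF2BP2 and 2.34 and 2.64 without IGF2BP3. In cytoplasmic RNA SP110 was 0.469, 0.396, 0.389 and 0.177 CPM in control cells, 1.03 and 1.38 without IGF2BP1, 1.22 and 1.27 without IGF2BP2 and 2.2, 2.3, 2.72 and 2.92 without IGF2BP3. All control libraries were below all knockout libraries, and the IGF2BP3 libraries were above those of the other 2 knockouts. Control total RNA held 3 to 6 counts of SP110 per library, so the gene passed the filter only through the knockouts where it is high, and its fold changes are given as a description. The fitted log2 fold changes were 1.89, 2.11 and 3.80 in total RNA of the IGF2BP1, IGF2BP2 and IGF2BP3 knockouts, 1.62, 2.28 and 3.44 in nuclear and 1.47, 2.14 and 2.99 in cytoplasmic RNA. SP110 overlaps its relative SP140 on the opposite strand.

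SAMD9, a cytoplasmic factor that restricts poxviruses (chromosome 7, 93099513 to 93118023, minus strand), was detected in every library, unlike its neighbour SAMD9L. In total RNA SAMD9 was 2.28, 2.55, 4.87 and 3.98 CPM in control cells, 6.16 and 6.04 without IGF2BP1, 7.0 and 6.3 without IGF2BP2 and 15.1 and 14.2 without IGF2BP3. Nuclear SAMD9 was 2.91, 3.36, 4.9 and 5.03 CPM in control cells, 6.05 and 7.02 without IGF2BP1, 7.18 and 5.66 without IGF2BP2 and 13.4 and 13.1 without IGF2BP3. In cytoplasmic RNA SAMD9 was 2.56, 2.13, 2.53 and 2.48 CPM in control cells, 3.94 and 4.89 without IGF2BP1, 3.65 and 3.13 without IGF2BP2 and 6.56, 4.99, 3.59 and 5.85 without IGF2BP3. Control total and nuclear RNA were lower in batches 1 and 2, the first 2 values, than in batches 3 and 4. The IGF2BP3 libraries were above all others in total and nuclear RNA. In the cytoplasm every knockout library was above every control library. SAMD9 rose 3.3-fold in total RNA of the IGF2BP3 knockout (1.72 (SE 0.142, adjusted p = 1.2e-06) on the log2 scale) and 2.53-fold in the IGF2BP1 knockout (1.34 (SE 0.173, adjusted p = 0.000156)). In the IGF2BP2 knockout the total RNA value of 0.58 (adjusted p = 0.00795) was called, and the nuclear and cytoplasmic values of 0.36 and 0.43 were not. The total RNA call was lost with DESeq2 (0.0552), without control replicate 4 (0.102) and without either IGF2BP2 library (0.0744 and 0.0829).

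TRIM21, a cytosolic antibody receptor and ubiquitin ligase (chromosome 11, 4384897 to 4393696, minus strand), went opposite ways in 2 knockouts. In total RNA TRIM21 was 4.43, 5.38, 5.77 and 5.45 CPM in control cells, 5.05 and 5.6 without IGF2BP1, 1.97 and 2.05 without IGF2BP2 and 11.4 and 10.9 without IGF2BP3. Nuclear TRIM21 was 9.01, 8.7, 6.5 and 6.55 CPM in control cells, 5.61 and 6.27 without IGF2BP1, 2.97 and 2.57 without IGF2BP2 and 14 and 13.7 without IGF2BP3. In cytoplasmic RNA TRIM21 was 5.42, 7.23, 5.84 and 5.83 CPM in control cells, 5.42 and 4.89 without IGF2BP1, 2.43 and 1.73 without IGF2BP2 and 10.1, 10.2, 10.2 and 12.7 without IGF2BP3. The IGF2BP2 libraries were below all others and the IGF2BP3 libraries above all others in each RNA kind. TRIM21 fell 2.78-fold in total RNA of the IGF2BP2 knockout (-1.47 (SE 0.181, adjusted p = 2.9e-05) on the log2 scale) and rose 1.99-fold in that of the IGF2BP3 knockout (0.99 (SE 0.139, adjusted p = 8.53e-05)). SP100, the founding nuclear body protein, was called higher in total RNA of the IGF2BP2 knockout and in nuclear RNA of the IGF2BP3 knockout, at levels under 1 CPM. It passed the filter there only through knockout libraries, so these calls support nothing. RTP4 had no counts in any library, where the limit that a count of 0 allows is 0.103 to 0.207 CPM.

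The remaining genes are small interferon-induced proteins, EPSTI1 among them. EPSTI1 (chromosome 13, 42886388 to 42992271, minus strand) was called higher in all 9 comparisons. In the IGF2BP1 knockout none of these calls held under every alternative. The role of EPSTI1 in antiviral defence is less defined than that of most others here. In total RNA EPSTI1 was 0.228, 0.943, 0.746 and 0.306 CPM in control cells, 1.87 and 1.95 without IGF2BP1, 1.97 and 1.69 without IGF2BP2 and 4.75 and 4.9 without IGF2BP3. Nuclear EPSTI1 was 0.839, 0.688, 0.437 and 0.764 CPM in control cells, 1.95 and 2.36 without IGF2BP1, 1.79 and 2.14 without IGF2BP2 and 4.68 and 4.49 without IGF2BP3. In cytoplasmic RNA EPSTI1 was 0.835, 0.892, 0.844 and 0.707 CPM in control cells, 2.22 and 1.75 without IGF2BP1, 1.98 and 1.61 without IGF2BP2 and 4.82, 4.26, 4.06 and 3.59 without IGF2BP3. All control libraries were under 1 CPM, the IGF2BP1 and IGF2BP2 libraries were between 1 and 3 CPM, and the IGF2BP3 libraries were above 3 CPM, with no overlap. EPSTI1 rose 8.78-fold in total RNA of the IGF2BP3 knockout, with log2 fold changes of 3.13 (SE 0.361, adjusted p = 1.69e-05), 2.96 (adjusted p = 2.62e-10) and 2.54 (adjusted p = 7.66e-11) in total, nuclear and cytoplasmic RNA. In the IGF2BP1 and IGF2BP2 knockouts the total RNA values were 1.77 (adjusted p = 0.00842) and 1.73 (adjusted p = 0.00512). The first was lost without control replicate 1 (0.0563) or IGF2BP1 replicate 1 (0.0576), within 2.46e-06 to 0.0576 over the alternatives, and the second without control replicate 4 (0.0874), within 3.3e-06 to 0.0874.

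IFI6 (chromosome 1, 27666061 to 27672218, minus strand) is a small protein of the endoplasmic reticulum that protects cells from viral membrane remodelling. In total RNA IFI6 was 4.79, 5.16, 5.07 and 4.29 CPM in control cells, 4.39 and 8.42 without IGF2BP1, 5.49 and 6.22 without IGF2BP2 and 12.1 and 11.7 without IGF2BP3. Nuclear IFI6 was 5.54, 4.81, 4.95 and 5.6 CPM in control cells, 8.44 and 7.07 without IGF2BP1, 10.6 and 10.1 without IGF2BP2 and 23.3 and 19.9 without IGF2BP3. In cytoplasmic RNA IFI6 was 4.59, 5.65, 4.54 and 5.6 CPM in control cells, 5.27 and 5.05 without IGF2BP1, 6.46 and 7.36 without IGF2BP2 and 12.7, 11.6, 7.21 and 8.24 without IGF2BP3. The 2 IGF2BP1 libraries of total RNA were far apart, the higher of them being the library deposited under both labels. The IGF2BP3 libraries were above every control library in all RNA kinds. IFI6 rose 2.52-fold in total RNA of the IGF2BP3 knockout, with log2 fold changes of 1.33 (SE 0.183, adjusted p = 7.01e-05), 2.04 (adjusted p = 1.52e-15) and 1.25 (adjusted p = 4.5e-10) in total, nuclear and cytoplasmic RNA. Its nuclear call in the IGF2BP1 knockout (0.58 (adjusted p = 0.0058)) was lost without that library, at 0.00515 to 0.0762 over the alternatives.

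IFI44L (chromosome 1, 78619922 to 78646145, plus strand) was called lower in each RNA kind of the IGF2BP1 knockout, as were IFI35, IFIT5, IFITM1 and LGALS3BP. In total RNA IFI44L was 0.913, 1.89, 1.49 and 1.35 CPM in control cells, 0.606 and 0.341 without IGF2BP1, 0.636 and 1.17 without IGF2BP2 and 2.0 and 1.65 without IGF2BP3. Nuclear IFI44L was 0.895, 1.29, 1.36 and 1.15 CPM in control cells, 0.342 and 0.602 without IGF2BP1, 0.552 and 0.386 without IGF2BP2 and 1.24 and 1.95 without IGF2BP3. In cytoplasmic RNA IFI44L was 1.3, 1.24, 1.75 and 1.12 CPM in control cells, 0.641 and 0.532 without IGF2BP1, 0.608 and 0.592 without IGF2BP2 and 1.43, 1.55, 0.562 and 0.443 without IGF2BP3. Both IGF2BP1 libraries were below every control library in each RNA kind, as were the IGF2BP2 libraries in nuclear and cytoplasmic RNA, and the IGF2BP3 libraries of batches 3 and 4 were within or above the control range. The log2 fold changes in total, nuclear and cytoplasmic RNA were -1.52, -1.21 and -1.11 in the IGF2BP1 knockout, all called. Without the library deposited under both labels, the value was -0.58 (adjusted p = 0.522) in total RNA, where adjusted p ranged from 0.000658 to 0.522 over the alternatives, and -1.09 (adjusted p = 0.143) in nuclear RNA, where it ranged from 0.0179 to 0.196. The cytoplasmic call was lost with DESeq2 (0.115), without the replicate block (0.101) and without any one of the IGF2BP1 or same-batch control libraries (0.0896 to 0.14). In the IGF2BP2 knockout the values were -0.60, -1.49 and -1.24, the total RNA value not called. Without control replicate 3 the nuclear and cytoplasmic calls were lost (0.13 and 0.133), and the nuclear one without IGF2BP2 replicate 2 too (0.206). Its neighbour IFI44 was not tested.

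IFI35 went from 3.16 CPM ± 0.844 (SD, n = 4) in control total RNA to 1.26 CPM ± 0.353 (SD, n = 2) and 2.36 CPM ± 0.0988 (SD, n = 2) in the IGF2BP1 and IGF2BP2 knockouts and to 7.18 CPM ± 1.23 (SD, n = 2) in the IGF2BP3 knockout. Its log2 fold changes were -0.98, -0.69 and 0.91 in total, -1.24, -0.61 and 1.13 in nuclear and -1.55, -0.66 and 1.30 in cytoplasmic RNA of the 3 knockouts in turn, all called. IFI27 was called higher in total and cytoplasmic RNA of the IGF2BP2 knockout, at 0.99 (adjusted p = 0.00296) and 1.74 (adjusted p = 0.000118), and in cytoplasmic RNA of the IGF2BP3 knockout, at 1.13 (adjusted p = 0.0139). XAF1, which promotes apoptosis, had 6 counts over the 32 libraries.

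**Figure D3:**
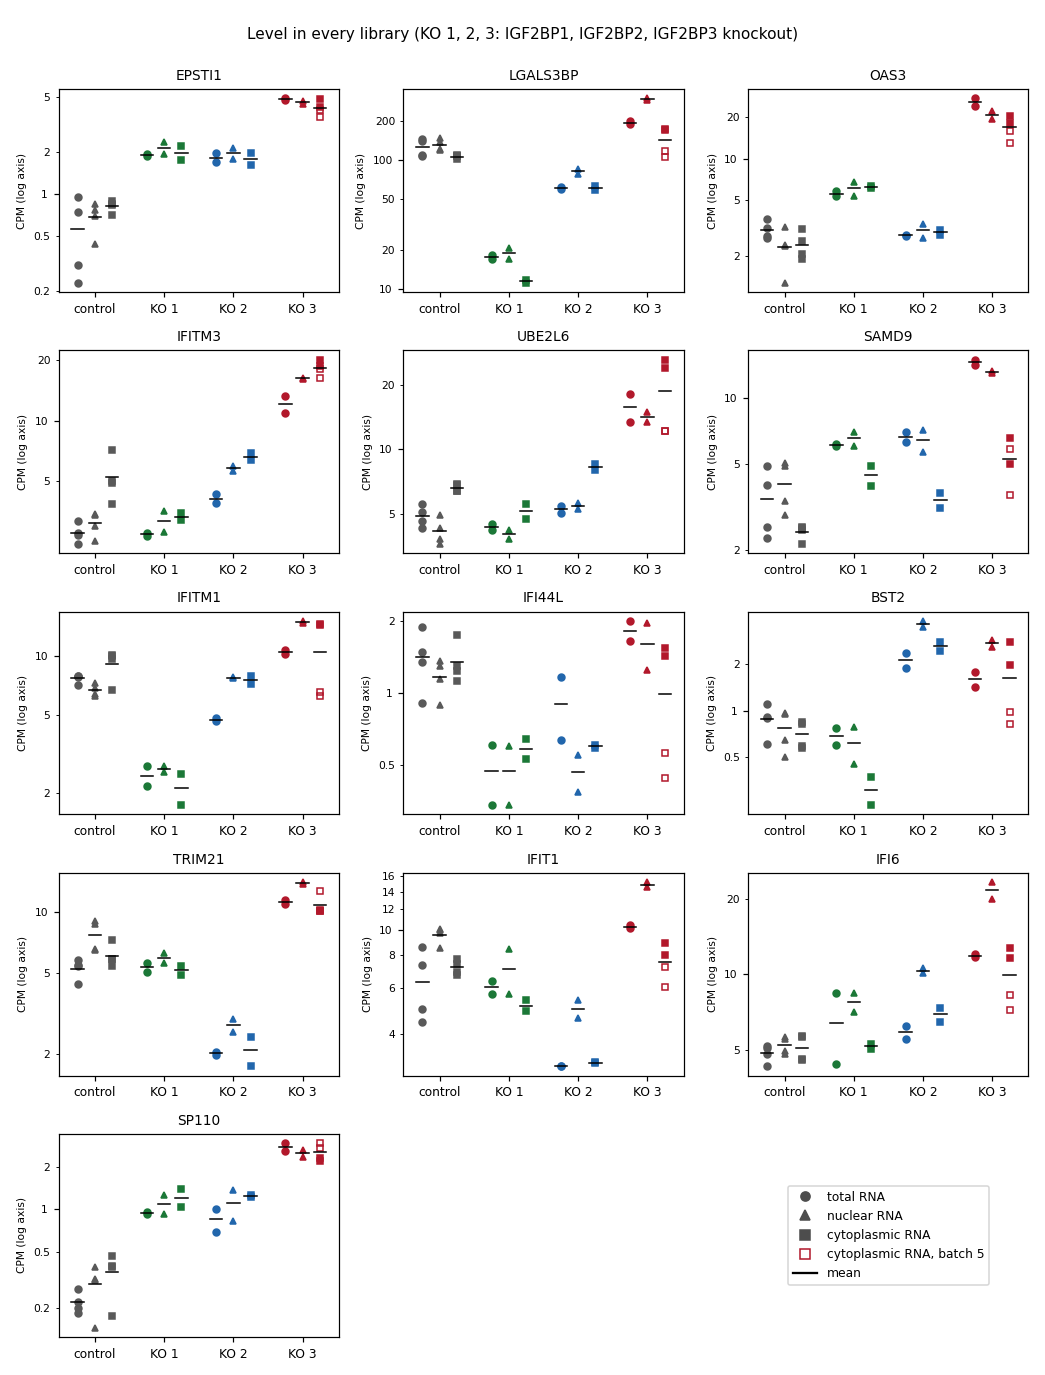
CPM in every library (log axes) of 13 genes described above, by genotype on the horizontal axis, with circles for total, triangles for nuclear and squares for cytoplasmic RNA, open squares for the 2 batch 5 libraries and bars for group means. EPSTI1, OAS3, IFITM3 and UBE2L6 are highest in the IGF2BP3 knockout in every RNA kind, and LGALS3BP is lowest in the IGF2BP1 knockout.

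The IGF2BP2 and IGF2BP3 knockouts were made into libraries in the same 2 batches, so their difference was tested directly in the same model. In total RNA 18 of the 34 genes were higher and 3 lower in the IGF2BP3 than in the IGF2BP2 knockout, where 21.8% and 21.5% of all genes were called (43.3% in either direction). In nuclear RNA 16 were higher and 4 lower, against 24.1% and 24.1% (48.2%), and in cytoplasmic RNA 22 and 6, against 31.3% and 31.5% (62.7%). In the 3 RNA kinds alike 15 genes were higher in the IGF2BP3 knockout, and ADAR and ISG15 were lower, against 18.3% and 18.6% of all genes. The largest total RNA differences were those of OAS3 at 3.19 (adjusted p = 3.26e-08), OASL at 2.93 (adjusted p = 0.00272), TRIM21 at 2.46 (adjusted p = 2.6e-07), IFIT1 at 1.78 (adjusted p = 3.04e-06) and IFITM2 at 1.73 (adjusted p = 6.47e-07) on the log2 scale. LGALS3BP at 1.69, IFIT2 at 1.69, SP110 at 1.68, IFI35 at 1.60 and UBE2L6 at 1.59 followed close behind. OASL, also among the 15, passed the filter in each RNA kind only with the IGF2BP3 libraries, and so did IFIT2 in total RNA. Their differences there had to appear and support nothing. ISG15 differed the other way, with values of -1.37, -1.03 and -0.76 in the 3 RNA kinds. BST2, MX1 and PLSCR1 were called against the control in both knockouts in total RNA, and the difference between the knockouts was not called for any of them, at -0.41 (adjusted p = 0.188), -0.45 (adjusted p = 0.479) and -0.037 (adjusted p = 0.817), which does not show that they were equal. Higher calls in total RNA that held under every alternative numbered 12 of the 18.

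Cytoplasmic RNA of the IGF2BP3 knockout came in 2 pairs, one from batches 3 and 4 and one from batch 5, and the pairs disagreed in size. With batch as a term, the batch 5 libraries inform the spread but leave the fold change as it is. Of the 24 genes called higher there, the first pair lay above the range of the 4 control libraries for 23. That follows largely from the calls, whose fold changes rest on this pair. The batch 5 pair lay above that range for 15 of the 24, overlapped it for 7 (BST2, IFI27, IFIT1, ISG15, LGALS3BP, OASL and SAMHD1) and lay below it for 2 (IFITM1 and HELZ2). The share of all genes in these positions was not counted, so the numbers only describe these 24 genes. Both batch 5 libraries were below both others for 18 of the 24. Among the 24 effector genes with a control mean of at least 1 CPM, whatever their call, batch 5 was lower for 54.2% and higher for 25%, and among all 14220 genes at that level it was lower for 36.4% and higher for 44.4%. OAS3, SP110, EPSTI1, IFITM3, IFITM2 and TRIM21 were above the control range in both pairs. Without the batch 5 libraries 28 effector genes were called in that comparison, 24 higher and 4 lower. What sets batch 5 apart was not tested.

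**Figure D4:**
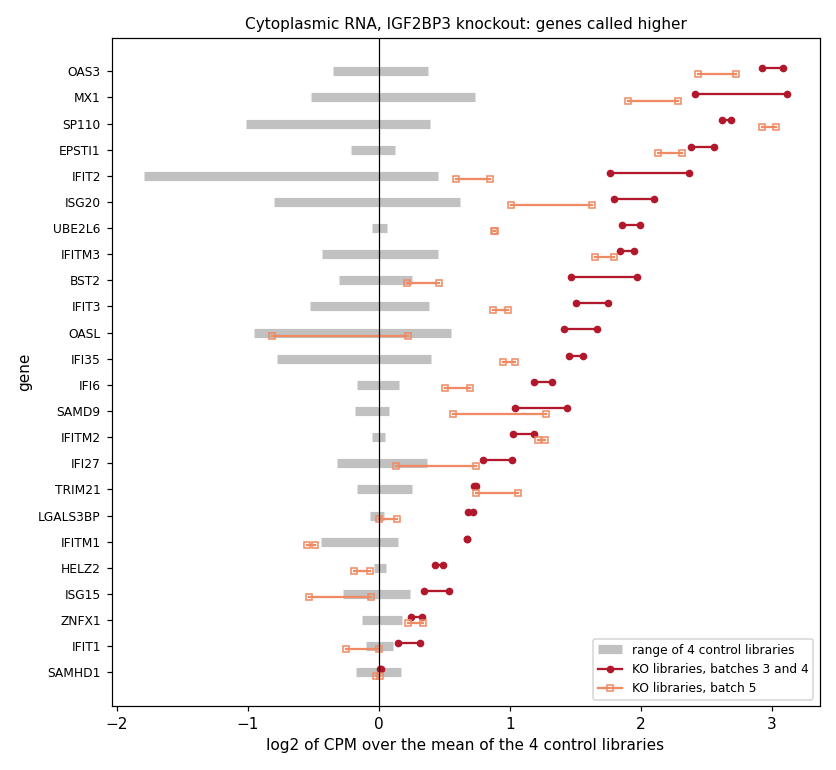
Log2 of CPM over the control mean in cytoplasmic RNA for the 24 genes called higher in the IGF2BP3 knockout, with grey bars for the range of the 4 control libraries, filled circles for the libraries of batches 3 and 4 and open squares for those of batch 5. The open squares lie left of the filled circles for 18 genes, and for IFITM1 and HELZ2 they lie left of the grey bar.

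In control cells the effector transcripts were spread over both compartments. MALAT1, a nuclear RNA, was at 108 CPM in nuclear and 22.8 in cytoplasmic control RNA, and the mitochondrial MT-CO1 at 5118 and 15110, which shows the fractions to be enriched and not pure. Of 29 effector genes tested in the control, 11 were higher in nuclear and 5 in cytoplasmic RNA, while 32.6% and 33.3% of all genes were (65.9% in either direction). The most nuclear were ISG20 at a log2 ratio of 1.98 (SE 0.328, adjusted p = 1.19e-05), IFI27 at 1.61 (SE 0.246, adjusted p = 3.95e-06), HELZ2 at 1.11 (SE 0.072, adjusted p = 3.76e-12) and ISG15 at 1.11 (SE 0.155, adjusted p = 1.05e-06). The most cytoplasmic were IFITM3 at -0.82 (SE 0.164, adjusted p = 0.000131), IFITM2 at -0.78 (SE 0.0838, adjusted p = 1.96e-08) and UBE2L6 at -0.77 (SE 0.132, adjusted p = 2.06e-05). The plain library totals move the median of all genes by 0.14 here and give 14 nuclear and 5 cytoplasmic calls.

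The number of effector genes with a changed nuclear to cytoplasmic ratio was close to the share over all genes in each knockout, so it is no result about them. The interaction of compartment and knockout was called for 1 of 34 genes in the IGF2BP1 knockout (lower, a direction called for 1.76% of all genes; 4.11% in either direction), 5 in the IGF2BP2 knockout (4 higher, 7.77%, and 1 lower, 9.71%; 17.5% in either direction) and 5 in the IGF2BP3 knockout (3 higher, 4.07%, and 2 lower, 6.80%; 10.9%). ISG20 was called in all 3, each time toward the cytoplasm, with log2 changes of the ratio of -2.72 (adjusted p = 0.0132), -1.57 (adjusted p = 0.0351) and -2.04 (adjusted p = 0.0114). In the IGF2BP1 knockout 1 of the 2 nuclear libraries was also deposited as total RNA, so this ratio may rest on a library that is not nuclear. The IGF2BP2 and IGF2BP3 ratios share their same-batch controls. The level of ISG20 was 1.41 CPM ± 0.225 (SD, n = 4) in nuclear and 0.345 CPM ± 0.147 (SD, n = 4) in cytoplasmic control RNA, the latter with 4 to 9 counts per library. In the IGF2BP1 knockout ISG20 was called lower in nuclear RNA (-1.35 (adjusted p = 0.00812)) and higher in cytoplasmic RNA (1.34 (adjusted p = 0.0439)). In cytoplasmic RNA it passed the filter on low counts only through the knockouts, where it is high. Its cytoplasmic calls, and the opposite directions of these calls, thus support nothing. HERC5 was called toward the nucleus in the IGF2BP2 and IGF2BP3 knockouts, at 0.54 (adjusted p = 0.00507) and 0.52 (adjusted p = 0.00802). LGALS3BP at 0.56 (adjusted p = 9.66e-05) and IFI6 at 0.70 (adjusted p = 0.0168) moved toward the nucleus and ISG15 at -0.82 (adjusted p = 0.0285) toward the cytoplasm in the IGF2BP3 knockout. TRIM25 at 0.40 (adjusted p = 0.0106), IFIT3 at 1.68 (adjusted p = 0.0419) and IFITM3 at 0.67 (adjusted p = 0.0467) moved toward the nucleus in the IGF2BP2 knockout. All 11 calls were lost in at least 1 alternative. The largest adjusted p over the alternatives was 0.0806 for LGALS3BP and between 0.239 and 0.745 for the rest. Without IGF2BP1 replicate 2 or control replicate 2 of either compartment no gene was called in the IGF2BP1 knockout, and leaving out single libraries gave 0 to 6 calls in the IGF2BP2 and 0 to 7 in the IGF2BP3 knockout.

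**Figure D5:**
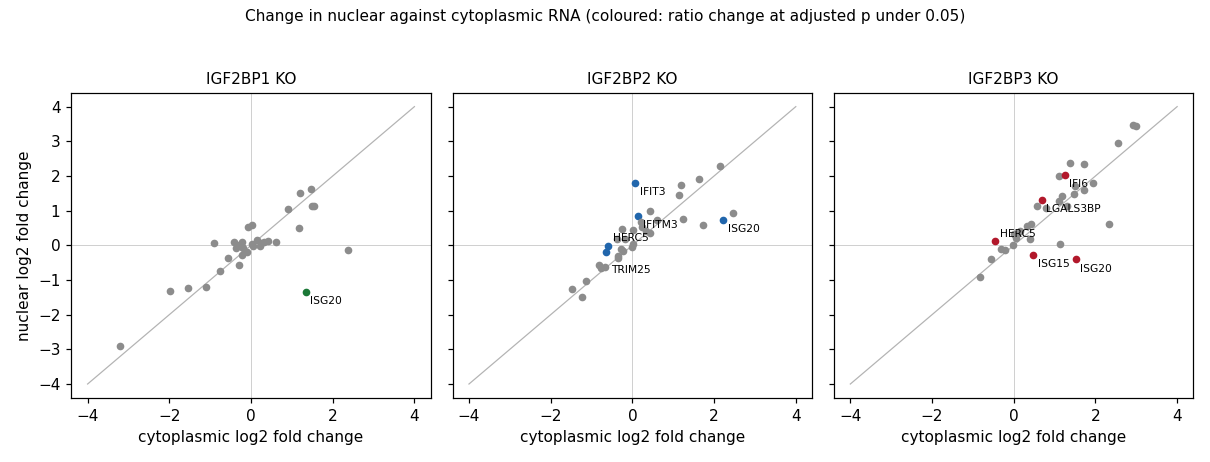
Log2 fold change in nuclear RNA against that in cytoplasmic RNA for the 34 tested genes in each knockout, with the diagonal as a line and coloured, named points where the change of ratio has an adjusted p under 0.05. ISG20 lies below the diagonal in all 3 panels, and most genes lie near it.

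Genes upstream of the effectors were counted from lists of ligands, receptors, regulators and sensors. Interferon ligands were at the limit of detection. The 12 ligand genes summed to between 0.0555 and 0.122 CPM in control total RNA to between 0.292 and 0.454 in the IGF2BP1 knockout, to between 0.347 and 0.402 in the IGF2BP2 knockout and to between 0.0915 and 0.148 in the IGF2BP3 knockout. In nuclear RNA the sums were 0.168 to 0.318 CPM in the control and 0.586 to 0.647 in the IGF2BP3 knockout. These rest on 6 to 25 counts per group, and IFNB1 had no counts outside 1 nuclear control library. Of the 12 receptor and JAK-STAT genes, total RNA gave no calls without IGF2BP1, 4 lower calls without IGF2BP2, and 4 higher and 3 lower calls without IGF2BP3. Over all genes 24.2%, 47.0% and 46.9% were called in these comparisons, so the counts are no result about that list. STAT2 was called higher in the IGF2BP3 knockout at 0.55, 0.33 and 0.53 in total, nuclear and cytoplasmic RNA. IRF9 was called higher there in total (0.64 (adjusted p = 0.0191)) and cytoplasmic RNA (1.28 (adjusted p = 0.0119)). Among the 5 tested interferon regulatory factors, total RNA had 0 higher and 2 lower, 1 and 3, and 3 and 2 calls in the IGF2BP1, IGF2BP2 and IGF2BP3 knockouts. Of all genes 10.7% and 13.5%, 23.3% and 23.7%, and 23.5% and 23.4% were called higher and lower there. With 5 genes the counts are no result about that list. IRF7, the regulator that amplifies the response and a gene chosen after its values were seen, was at 1.24 CPM in control total RNA, 0.0201 in the IGF2BP2 knockout and 6.11 in the IGF2BP3 knockout. Its log2 fold changes in the IGF2BP3 knockout were 2.20, 2.12 and 2.47, all called.

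Of the sensors and their partners 11 were tested in total RNA, with 1 higher and 1 lower call in the IGF2BP1, 1 and 4 in the IGF2BP2 and 1 and 0 in the IGF2BP3 knockout. Over all genes 24.2%, 47.0% and 46.9% were called in either direction in these comparisons, and the counts were near or below those shares. EIF2AK2, the kinase PKR that stops translation on binding double-stranded RNA, was called lower in nuclear and cytoplasmic RNA of the IGF2BP3 knockout (-0.41 (adjusted p = 0.000295) and -0.44 (adjusted p = 1.72e-09)) and not in total RNA (-0.28 (adjusted p = 0.0718)).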

How the data were processed

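The deposited files hold raw read counts per gene and FPKM values, 1 table of each kind for total, nuclear and cytoplasmic RNA, and every column was matched to a sample by name. The submitters' processing notes name STAR, featureCounts, DESeq2 1.44.0 and GRCh38, with no order or settings. The annotation, strand setting and filters are not given in the sources used here. Libraries were stranded, poly(A)-selected and read as paired ends of 50 bases, per the labels' protocols. Identifiers without a symbol held 0.349% to 0.713% of a library's counts.

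CPM here is the count over the library size scaled by TMM. Counts were fitted with edgeR 4.0.16 (R 4.3.3; TMM, filterByExpr by genotype, glmQLFit, glmQLFTest) with terms for genotype and batch, per RNA kind and with all its libraries. Changes of nuclear to cytoplasmic ratios were tested as an interaction in 1 fit of both compartments in batches 1 to 4. P-values were adjusted by Benjamini-Hochberg over all genes tested, 18745 in total, 18732 in nuclear and 18212 in cytoplasmic RNA. Batch numbers come from the labels and pair each knockout with controls of the same batch.

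The deposited FPKM values are scaled by the whole span of a gene and not by its exons (implied lengths lie within 5% of a constant multiple of the span for 100% of genes with 200 counts or more), so levels between genes are given as CPM per kilobase of exons (GENCODE 29), in place of the FPKM first planned. Named genes were all 44, by role. Values in every library are given for up to 12 genes called in 1 direction in the 3 RNA kinds of a knockout, with a mean of at least 1 CPM and the largest fold changes in total RNA. The genes and lists were chosen with earlier results of these data known. The scripts were tested on simulated data. Alternatives were DESeq2 1.42.0, limma 3.58.1 on log2(FPKM + 1) and log2(FPKM + 0.1), other scalings and filters, no batch term, the knockout's own batches only, and each library left out in turn. Plain library totals and other CPM limits were added after seeing the data. Some genes of the marker and pathway lists are not reported here.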

Additional observations from a re-analysis of the deposited data

Results flagged for a closer look

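In groups of 4 libraries, 1 library stood far from the other 3 for 7 of 104 combinations of gene and group, where chance gives about 1 in 20. In control total RNA, HERC5 was at 25.61 CPM in replicate 3 and at 22.95 to 23.14 in the others, and IFITM1 was at 7.16 CPM in replicate 3 and at 7.823 to 7.94 in the others. In control cytoplasmic RNA, IFITM1 was at 6.729 CPM in replicate 1 against 9.666 to 10.12. In control nuclear RNA, IFITM2 was at 11.53 CPM in replicate 2 against 12.79 to 12.92, PLSCR1 at 30.55 in replicate 4 against 28.75 to 29.02, and USP18 at 15.44 in replicate 1 against 12.13 to 12.35. In cytoplasmic RNA of the IGF2BP3 knockout, TRIM21 was at 12.67 CPM in replicate 4, a batch 5 library, against 10.07 to 10.18.

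Changes of the nuclear to cytoplasmic ratio are differences between the effect in 2 compartments, and 11 were called by the interaction test. ISG20 moved by -2.72 on the log2 scale in the IGF2BP1 knockout, -1.57 in the IGF2BP2 knockout and -2.04 in the IGF2BP3 knockout. The first of these rests in part on the nuclear library that was also deposited as total RNA. In the IGF2BP2 knockout HERC5 moved by 0.535, IFIT3 by 1.68, IFITM3 by 0.673 and TRIM25 by 0.404. In the IGF2BP3 knockout HERC5 moved by 0.518, IFI6 by 0.703, LGALS3BP by 0.556 and ISG15 by -0.816.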

How the results depend on the processing

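No call became a call in the opposite direction under any alternative run. Of the summary results, 310 values stayed within 1.5 times the main count and 41 did not. DESeq2 called 13, 7 and 7 effector genes in cytoplasmic, nuclear and total RNA of the IGF2BP1 knockout, and limma on log2(FPKM + 1) called 7 in nuclear and 5 in total RNA. With no replicate block, so without pairing by batch, 12 were called in cytoplasmic RNA of the IGF2BP1 knockout and 2 for the ratio in the IGF2BP2 knockout. Without the batch by compartment term the ratio gave 3 calls in the IGF2BP1 and 2 in the IGF2BP2 knockout. The IGF2BP2 ratio gave 2 calls (1 higher, 1 lower) under plain library totals and 3 (2 and 1) under upper quartile scaling. The causes were not tested. Leaving out each library in turn gave 8 to 13, 12 to 24 and 13 to 24 calls in total RNA of the IGF2BP1, IGF2BP2 and IGF2BP3 knockouts. In nuclear RNA it gave 9 to 12, 13 to 23 and 19 to 22, and in cytoplasmic RNA 10 to 19, 18 to 24 and 22 to 29. For IGF2BP3 against IGF2BP2 it gave 14 to 27 in total, 14 to 23 in nuclear and 20 to 28 in cytoplasmic RNA. The ratios gave 0 to 1, 0 to 6 and 0 to 7, and control nuclear against cytoplasmic RNA gave 12 to 15. Counts moved by over 1.5 times in total RNA without IGF2BP2 replicate 2 (12), control replicate 4 (13, IGF2BP2 knockout) or either IGF2BP3 library (13), and in cytoplasmic RNA without IGF2BP1 or control replicate 2 (10). In nuclear RNA of the IGF2BP2 knockout the split of 11 higher and 6 lower became 15 and 5 under plain library totals, which shift the median of all genes by up to 0.267 (log2). Under those totals in cytoplasmic RNA IFIT5 and SAMHD1 turned direction without IGF2BP2, and USP18 without IGF2BP3. With 0.5 or 2 CPM in place of 1, the genes expressed in the control numbered 28 or 23 in total, 29 or 24 in nuclear and 28 or 22 in cytoplasmic RNA. Depth limits the 10 untested genes and those near the floor, such as MX1, SP100 and IFIT2.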
